A study of Ovis aries with 15 samples.

Results

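Isolated distal H3K27ac regions are stretches of acetylated chromatin in sheep perirenal fat that lie away from H3K4me3 and stand alone or in small groups. They were taken from the authors' H3K27ac peak table as the regions on chromosomes 1 to 26 that overlap no H3K4me3 region by 1 bp. Such distal regions were chained where the gap between neighbours was 12.5 kb or less, and chains of 1 to 4 regions were kept. The rule found 32461 members among 87272 H3K27ac regions (37.2%), or 62.0% of the 52329 distal regions. They form 19716 chains, of which 11749 hold 1 region, 4452 hold 2, 2252 hold 3 and 1263 hold 4. The rule used positions alone, and neither the level nor the change of H3K27ac between stages entered it.

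H3K27ac is an acetyl group on lysine 27 of histone H3, and it is found on active promoters and active enhancers. H3K4me3 marks promoters, so H3K27ac without H3K4me3 is widely used to point at enhancers, the elements that raise the transcription of genes at a distance. Dense runs of acetylated enhancers are commonly set apart from isolated ones, and the chaining step follows that practice. H3K27me3, the Polycomb mark, sits on the same lysine, so a histone tail carries one or the other. Fat around the kidney of sheep is brown and heat-producing before birth and turns into white storage fat in the weeks after.

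The animals were wild type purebred merino sheep that received no treatment. Fetuses were taken at 132 ± 1 days of gestation (term 150 days). Lambs were 80 days old by the series design and 89 ± 7 days old by the growth protocol. Libraries of H3K27ac and of H3K27me3 came from 2 animals per stage, and those of H3K4me3 from the same animals and 1 more lamb. The titles of the lamb libraries carry the tag VEH, which fetal titles lack, so whatever it stands for cannot be told apart from stage. Input chromatin, pooled per stage, was not used here.

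The H3K27ac libraries held 34871674 to 44096535 reads in regions, the H3K27me3 libraries 7233767 to 10645917 and the H3K4me3 libraries 12482468 to 58333449. As a check of the tissue, promoters of 6 of 8 listed adipocyte genes were present, and their summed H3K27ac signal, scaled to a library total of 1000000, was 894 and 1030 in fetuses against 680 and 658 in lambs. Promoters of 7 of 10 lymphocyte genes summed to 355 and 331 in fetuses and 571 and 503 in lambs, and those of 4 of 8 macrophage genes to 203 and 230 against 252 and 239. None of the 4 kidney tubule genes had a promoter in the table. The 3 adrenal promoters found, of 6, summed to 214 and 208 against 248 and 255, and the 1 skeletal muscle promoter found, of 5, had 44.2 and 44.1 against 71.6 and 65.6. The summed adipocyte signal was thus lower in lambs, though not at FABP5 (127 and 125 against 134 and 115), and the lymphocyte, adrenal, muscle and macrophage sums were higher. The part of such differences in the changes below was not tested. In bulk tissue, fewer cells of a type and less acetylation per cell cannot be told apart.

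Members are short and moderately acetylated. Their median width was 1050 bp (90% between 600 and 2650 bp), and together they cover 40.3 Mb, or 26.7% of the length of all H3K27ac regions. They held 22.6% and 23.9% of the reads in fetuses 1 and 2 and 23.9% and 24.2% in lambs 1 and 2. The mean share was 0.814 percentage points higher in lambs, with p = 0.333 in a two-sided exact permutation test, the smallest p that 2 against 2 libraries can give. The difference was 0.184 points without fetus 1, 1.444 without fetus 2 and 0.209 with a chaining gap of 25000 bp. Levels are given below in RPM, TMM-scaled reads relative to a library total of 1000000 region reads. The median member had a level of 5.79 RPM, against 7.47 for all regions and 11.4 for regions that overlap H3K4me3. Per kb the gap was smaller, at 5.73 against 6.04 and 6.46.

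A pair of single-region chains nearest the median level shows what a typical member looks like. The region chr11:11567001-11567950, which begins or ends 50 bp from an H3K4me3 region, had 5.39 and 6.67 RPM in the fetuses and 4.88 and 6.20 in the lambs. The stages overlapped, with a log2 change of -0.13 ± 0.20 (SE). The region chr2:192870351-192871450 had 6.30 and 6.29 in the fetuses and 5.74 and 4.81 in the lambs, a log2 change of -0.25 ± 0.19 (adjusted p = 0.384).

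Lamb and fetal levels were spread differently along the members. Density in RPM per kb ran from 4.64 to 6.96 between the 5th and 95th percentiles of the fetal mean, and from 3.34 to 8.30 for the lamb mean. In single libraries, 231 members in fetus 1 and 174 in fetus 2 lay under 3 per kb, against 1226 in lamb 1 and 1039 in lamb 2. Both lambs thus had more low members than either fetus. By stage mean, which evens out fetuses that differ, 3 members lay under 3 per kb in fetuses and 988 in lambs. Above 9 per kb there were 29 and 138 members in the fetuses and 892 and 762 in the lambs. Whether regions were called per library or on pooled reads is not stated by any label or file header, and its part in the balance of gains and losses was not tested.

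**Figure D1:**
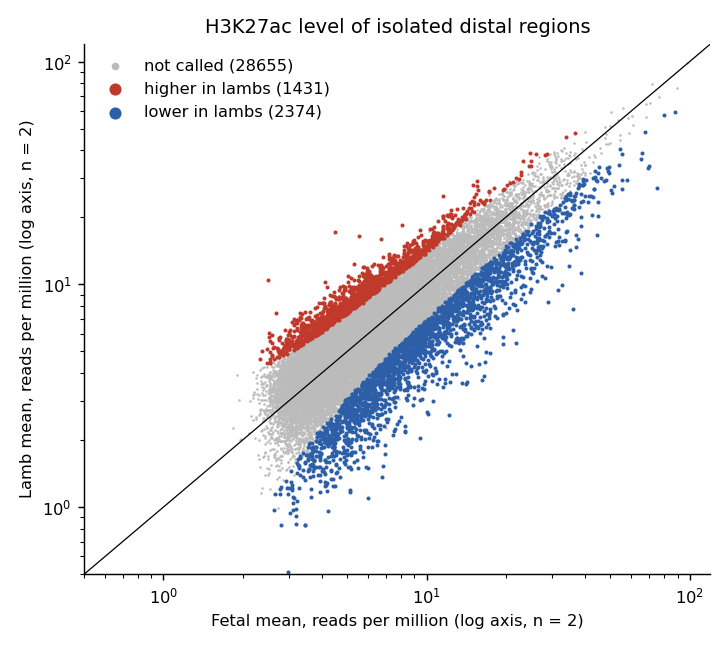
Mean H3K27ac level of each member in fetuses (x axis) and lambs (y axis), in RPM on log axes, with members called higher in lambs in red and lower in blue. The cloud reaches lower on the lamb axis than on the fetal axis, and 1 member at 0 in both lambs lies off the axis.

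Between stages, H3K27ac rose in lambs at 1431 members (4.41%) and fell at 2374 (7.31%), out of 32460 tested by edgeR's quasi-likelihood test at an adjusted p under 0.05. Over all H3K27ac regions tested, 4.48% were higher and 9.44% lower, so the share of gains was near the background and the share of losses below it. Clustered distal regions, those in chains of 5 or more, had 6.70% higher and 4.73% lower, and regions that overlap H3K4me3 had 3.20% higher and 14.1% lower. The members' median log2 change was 0.032, against 0.004 over all regions. Losses were larger than gains: the median fold was 1.79 for losses and 1.60 for gains, and 736 losses but 61 gains exceeded 2-fold. Fetal and lamb values did not overlap at any of the called members. Such separation was common with 2 libraries per stage, called or not. By class of distance to H3K4me3, 22.9% to 51.7% of all members lay wholly lower in lambs and 11.8% to 34.2% wholly higher.

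**Figure D2:**
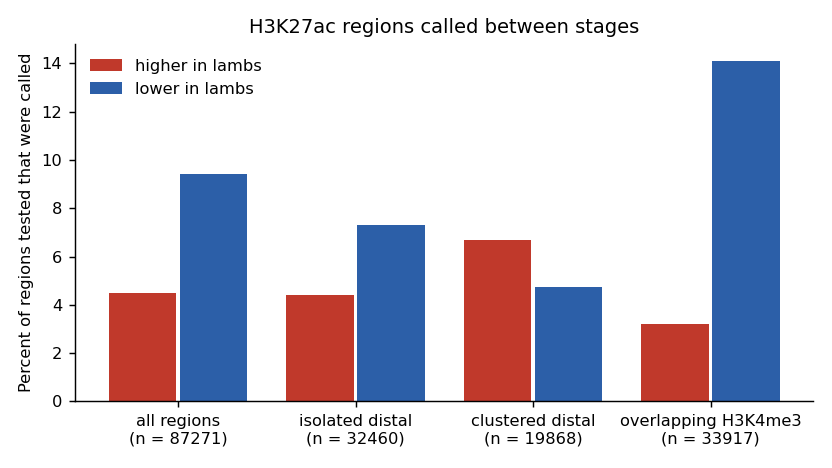
Percent of H3K27ac regions called higher (red) or lower (blue) in lambs, for all regions and for the 3 classes on chromosomes 1 to 26, with the number tested under each. Isolated distal regions sit between the clustered distal and the H3K4me3-overlapping regions in both directions.

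The balance of gains and losses rests on how libraries are scaled. Gains were 37.6% of the members called with TMM factors, 55.3% with column totals (2325 gains, 1876 losses) and 60.3% with TMM factors from the H3K4me3-overlapping regions alone (2484 and 1637). These scalings moved the median of all regions from 0.004 to 0.073 and 0.093, and the members' median stayed 0.027 or 0.028 above it. That difference depended on the fetuses, at -0.011 without fetus 1 and 0.064 without fetus 2. Gains over 2-fold numbered 106 and losses 584 with column totals, 126 and 532 with the H3K4me3-region factors, and 381 and 1382 without fetus 1. By median, the 2 fetuses differed from each other nearly as much as the stage means did. The median absolute log2 difference over members was 0.241 between the fetuses, 0.151 between the lambs and 0.257 between the stage means. These are unlike measures, because a mean of 2 libraries varies less than a single library. Differences over 2-fold were found at 1.14% of members between the fetuses, 0.0924% between the lambs and 2.29% between the stage means. The number of calls also rests on single libraries. Without fetus 1, there were 4960 gains and 6093 losses, and without fetus 2 there were 2971 and 2838. Without lamb 1 there were 100 and 676, and without lamb 2 there were 237 and 984.

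Named gains were the 8 largest among called members with at least 50 reads on average and no overlap between stages. The 8 named losses were chosen alike. The largest was at chr20:28112751-28113700, 9900 bp from the nearest H3K4me3 region, with 2.84 and 2.16 RPM in fetuses 1 and 2 and 7.83 and 13.2 in lambs 1 and 2. Both lambs were well above both fetuses, and the change was 4.19-fold (log2 2.07 ± 0.25, adjusted p = 0.000251). The region chr18:5460601-5461500 had 4.58 and 4.42 in fetuses and 18.6 and 15.6 in lambs, a change of 3.80-fold (log2 1.93 ± 0.17, adjusted p = 3.57e-05). Its nearest H3K27ac region over H3K4me3, 8350 bp away, had a log2 change of only 0.16 (adjusted p = 0.508).

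The member with the highest density of all, chr4:32269401-32269950 at 20.1 RPM per kb, was also among these gains. It had 7.25 and 3.86 RPM in fetuses and 17.5 and 15.5 in lambs (2.97-fold, log2 1.57 ± 0.23, adjusted p = 0.000794). The region chr1:114652301-114653650 had 7.02 and 6.4 in fetuses and 15.5 and 16.3 in lambs (2.37-fold), and replicates lay close together in both stages. The other 4 gains had log2 changes of 1.25 to 1.48, and each lost its call when a lamb was left out. Without lamb 1, adjusted p was 0.125 at chr21:49099151-49099700, 0.11 at chr18:19364651-19365500 and 0.26 at chr14:49469051-49470100. Without lamb 2 it was 0.0782 at chr2:233405201-233405900. At chr14:49469051-49470100, fetus 2 at 7.16 nearly reached lamb 2 at 8.28.

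Losses were led by a region with no reads in lambs. At chr13:67333501-67334350, fetus 1 had 197 reads, fetus 2 had 85 and both lambs had 0. Against a floor of 3 reads per lamb library, the level was at least 44.5-fold lower in lambs (adjusted p = 0.000145). The next region of the same chain, chr13:67339301-67340050, went the other way, with 172 and 147 reads in fetuses and 251 and 257 in lambs, and was called higher. The region on the other side, chr13:67324501-67325100, had 147 and 121 against 140 and 121 reads and was not called.

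Reads near 0 were otherwise rare. Only 3 members had 10 reads or fewer in any library, where the lowest count of any other member was 16 and the median count was 212 to 260 per library. The second of them, chr13:31065251-31066050, had 188 reads in fetus 1, 0 in fetus 2 and 95 and 99 in the lambs. The third, chr26:17952801-17953600, had 1 read in fetus 1, 162 in fetus 2, and 1 and 0 in the lambs, and it is the member that the filter on low counts left untested. In each of the 3, the empty libraries stood beside others with 85 to 197 reads, and which libraries were empty differed from region to region. These 3 were picked out after their values were seen.

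The other large losses kept some signal in lambs. At chr10:4886501-4887050 the levels were 2.21 and 3.76 in fetuses and 0.522 and 0.5 in lambs, a fall of 5.79-fold (log2 -2.53 ± 0.42, adjusted p = 0.00195). At chr17:26029951-26030950 they were 4.95 and 6.98 against 0.862 and 1.33 (5.47-fold lower, adjusted p = 0.000269). The stages were far apart at both regions, and the replicates of each stage were near each other by comparison.

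The broadest of the large losses was chr26:9114301-9119650, a region of 5350 bp that lies 320900 bp from the nearest H3K4me3 region. It had 29.2 and 42.8 RPM in fetuses and 6.94 and 8.53 in lambs, a fall of 4.66-fold (log2 -2.22 ± 0.18, adjusted p = 2.76e-05). At chr8:46142301-46143700 the levels were 8.37 and 10.5 in fetuses and 1.84 and 2.25 in lambs (4.63-fold lower). A pair of the 8 losses, chr9:4264701-4265850 (6.37 and 7.16 against 1.79 and 0.917) and chr9:4246701-4247800 (6.14 and 7.49 against 1.5 and 1.56), share the same nearest H3K27ac region over H3K4me3, which itself fell by 2.39 on the log2 scale (adjusted p = 3.57e-05). At chr3:54663301-54665200 the fetuses differed, with 4.42 in fetus 1 and 20.1 in fetus 2 against 2.45 and 2.75 in lambs. The log2 change there was -2.23 on all libraries and -0.77 without fetus 2, so its size rests on that fetus. The call at this region was lost with DESeq2 (adjusted p = 0.128). Without each library in turn, the calls of all 8 losses held.

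**Figure D3:**
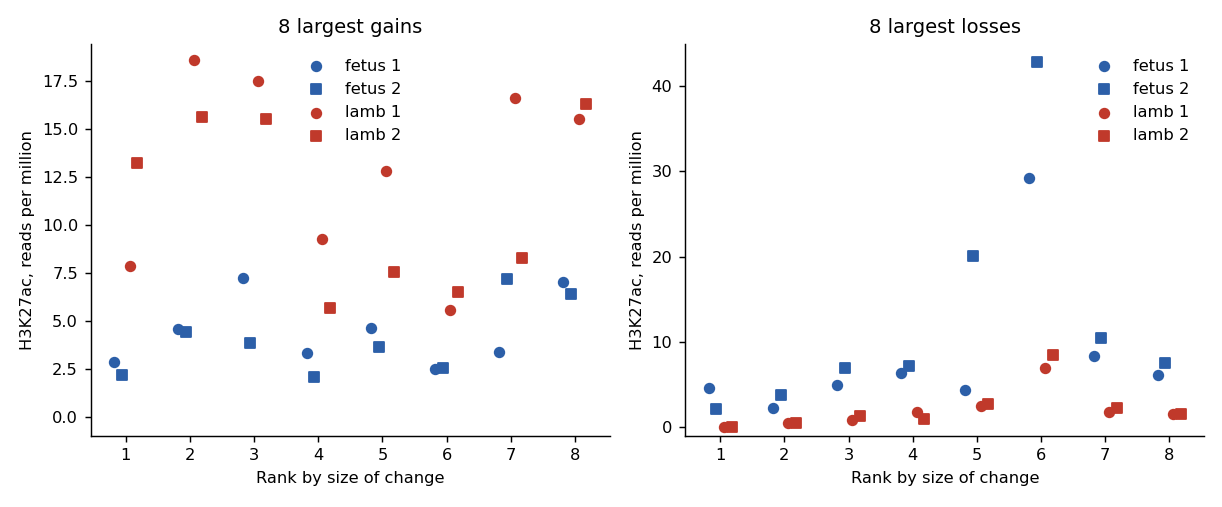
H3K27ac level in RPM of each library (fetuses blue, lambs red, circles for animal 1 and squares for animal 2) at the 8 largest gains and the 8 largest losses, ordered by fitted change. Lamb values lie above fetal values at every gain and below them at every loss, as the selection required. The 2 fetuses are furthest apart at the fifth loss (4.42 and 20.1).

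The most read and widest members differed in their change, and none was called higher. The top one on both counts, chr16:23159401-23171300 (11900 bp), had 100.0 and 94.3 RPM in fetuses and 102.0 and 95.5 in lambs (log2 change 0.02 ± 0.11, adjusted p = 0.91). The region chr15:21606201-21617750 (11550 bp) had 83.5 and 92.6 in fetuses and 57.7 and 61.1 in lambs, a fall of 1.48-fold (adjusted p = 0.00514, or 0.0939 without lamb 1). The region chr18:57473651-57485050 (11400 bp) had 85.8 and 74.5 against 60.4 and 54.3, a fall of 1.4-fold (adjusted p = 0.0165, or 0.0744 without lamb 1 and 0.228 without lamb 2). By density the order was different. The 4 densest members, ranked by a mean over both stages in which high values were mostly those of lambs, were called higher, so that direction is in part set by the ranking. Among them was chr1:275426251-275427700 with 13.2 and 9.75 in fetuses and 26 and 23.7 in lambs (2.16-fold). The last of them, chr20:27047151-27047700, had 5.67 and 4.54 against 7.81 and 7.86, and its call was lost without fetus 2 (adjusted p = 0.0632), without lamb 1 (0.308), without lamb 2 (0.243) and with DESeq2 (0.0649).

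Called members were compared by width and by density, whose lamb values the calls themselves fix. Members called higher had a median of 5.66 and 5.22 RPM per kb in the fetuses and 8.84 and 8.59 in the lambs. Members called lower had 5.70 and 6.83 in the fetuses, close to the gains in fetus 1 and above them in fetus 2, and lay at 3.37 and 3.51 in the lambs. Members not called were at 5.56 and 5.91 in fetuses and 5.84 and 5.81 in lambs. The median width was 1500 bp for losses and 1000 bp for gains and for members not called. By width class, the share lower was 2.50% for members of 550 to 800 bp, 4.63% up to 1050 bp, 7.47% up to 1450 bp and 16.1% above that, while the share higher stayed between 3.72% and 4.92%. The median log2 change went from 0.111 in the narrowest class to -0.074 in the widest. Wider members also hold more reads (a median of 3.78 RPM in the narrowest class and 12 in the widest). The part of read depth in these shares was not tested. Without lamb 1 the share lower in the widest class was 5.76%, without lamb 2 it was 7.74% and without fetus 1 it was 29.5%.

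Neighbouring members tended to be called in the same direction. Of 7967 chains of 2 to 4 members, 500 had at least 2 members called, and in 492 of these all called members went one way. Every member was higher in 54 chains and lower in 195. Neighbours up to 1 kb apart were both called in 231 pairs, each of them in 1 direction. Agreement was also common outside chains. Where both neighbours were called, they agreed in 217 of 226 pairs from 12.5 to 50 kb apart and in 84 of 97 beyond 200 kb. The next member after a loss was itself a loss in 50.4% of pairs up to 1 kb apart, 42.2% from 1 to 5 kb and 28% from 5 kb to the chaining limit. Beyond the chaining distance the share was 23.6% up to 50 kb, 21.0% up to 200 kb and 23.4% further away, all above the 7.31% of losses among all members. The first member was itself a loss in 598 of 10128 pairs from 12.5 to 50 kb apart and in 342 of 2553 beyond 200 kb. The frequency of losses thus differed between gap classes, and 7.31% is not the baseline of each. After a gain, the next member was a gain in 28.7% of pairs up to 1 kb apart, falling to 5.06% beyond 200 kb. Neighbours share the same 4 libraries, so these shares are a description. Chains with at least 2 members called numbered 73 without lamb 1 and 140 without lamb 2, all in 1 direction. Without fetus 1 they numbered 1887, with 91.6% in 1 direction, and without fetus 2 they numbered 772, with 96.6%.

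**Figure D4:**
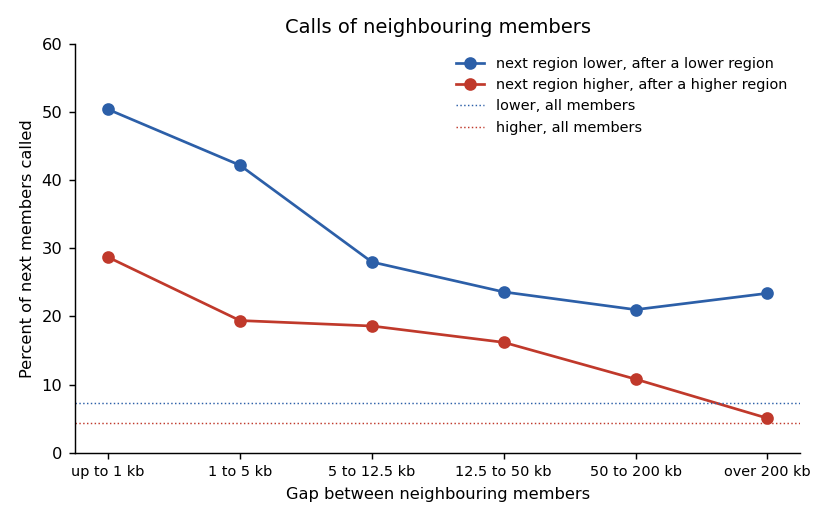
Percent of next members called lower after a lower member (blue) and higher after a higher member (red), by the gap between the neighbours, with dotted lines for the shares among all members. The blue line starts at 50.4% and stays at 21.0% or more, and the red line falls from 28.7% to 5.06%. The frequency of calls differs between gap classes, so the dotted lines are not the baseline of each class.

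Named chains show how members of a chain moved together. In the chain of 4 at chr1:114644451-114657650, all members rose, by 1.62-fold, 2.07-fold, 2.37-fold and 1.51-fold in order of position, and the H3K27ac region over H3K4me3 that begins 50 bp from the last of them rose by 0.60 on the log2 scale (adjusted p = 0.00696). The call at chr1:114652301-114653650 held without each library. Without lamb 1, adjusted p was 0.414 at the first member, 0.0738 at the second and 0.213 at the last, and without lamb 2 it was 0.355 at the first and 0.37 at the last. With DESeq2 it was 0.0739 at the first and 0.0637 at the last. In the chain of 2 at chr18:6525051-6531450, the first member had 5.32 and 4.7 RPM in fetuses and 10.8 and 9.67 in lambs (2.04-fold higher, adjusted p = 0.00199), and the second rose by 1.76-fold, a call that was lost without lamb 1 (adjusted p = 0.145) or lamb 2 (0.157). Their nearest H3K27ac region over H3K4me3, 12900 bp from the second, had a log2 change of -0.25 (adjusted p = 0.407). In the chain of 2 at chr16:27344901-27348200, the first member had 14.7 and 18.5 RPM in fetuses and 3.84 and 3.89 in lambs (4.29-fold lower, adjusted p = 2.83e-05). The second had 4.39 and 4.29 against 1.52 and 1.14 (3.24-fold lower). The chain of 3 at chr10:4886501-4896250, which holds the second largest loss, fell by 5.79-fold, 3.13-fold and 3.4-fold. In the chain of 2 at chr6:74192201-74194050, the first member had 1.77 and 4.62 RPM in fetuses and 0.567 and 1.11 in lambs, and the second fell by 4.12-fold. The fetuses differed at the first, and its call was lost without lamb 1 (adjusted p = 0.19).

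Distance from H3K4me3 went with loss of acetylation, a pattern noticed after the values were seen. The share of members lower in lambs was 4.82% up to 1 kb from the nearest H3K4me3 region, 5.28% from 1 to 5 kb, 6.19% from 5 to 20 kb, 9.76% from 20 to 100 kb and 27.5% beyond 100 kb (253 of 919). Gains went the other way, from 5.71% in the nearest class to 0.979% in the furthest. The furthest class had a median log2 change of -0.37, against 0.069 in the nearest. Its members lie on all 26 chromosomes, in 444 windows of 1 Mb. The pattern was seen at every level of signal: beyond 100 kb, 27.3%, 22.0%, 30.2% and 45.3% were lower from the weakest to the strongest level class of the whole table, against 3.86%, 4%, 5.87% and 9.42% up to 1 kb. Of the clustered distal regions only 64 lie that far out, and 4.69% of them were lower. That difference was not tested.

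The libraries did not contribute alike to this pattern. Beyond 100 kb, the median log2 level relative to the mean of the 4 libraries was 0.016 in fetus 1, 0.330 in fetus 2, -0.242 in lamb 1 and -0.105 in lamb 2. The median log2 difference of fetus 1 minus fetus 2 was -0.298 there, -0.067 between 5 and 20 kb and 0.004 up to 1 kb, so the fetuses differed along the same axis as the stages. Without fetus 2, 27.2% of the furthest class were still lower, with a median of -0.172. The share was 52.6% without fetus 1, 16.3% without lamb 2 and 9.36% without lamb 1, and in each of these cases it was above that of every nearer class. Under the other scalings it was 24.2% and 21.0%.

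**Figure D5:**
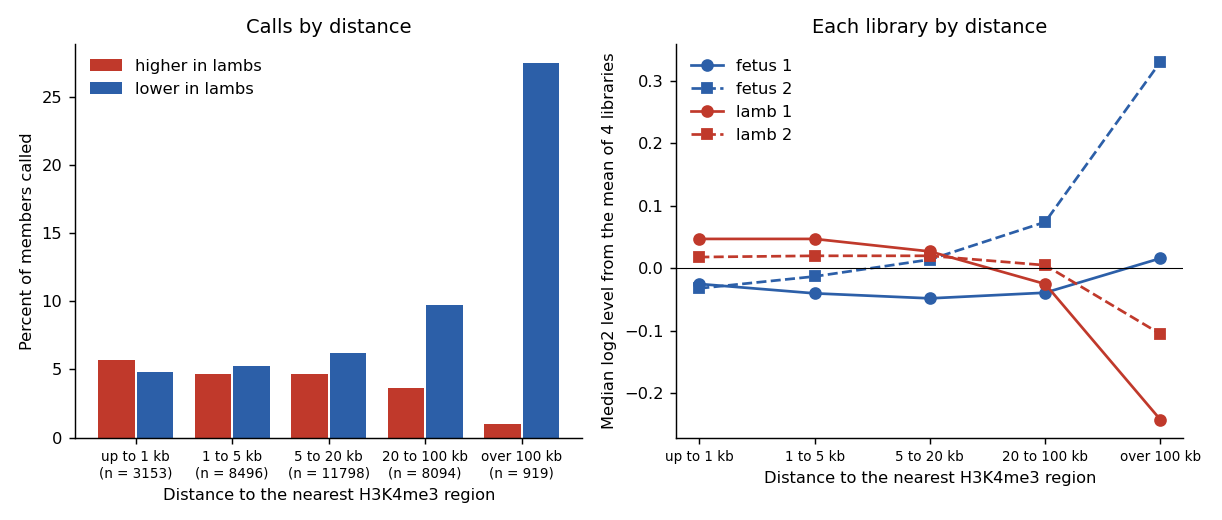
Left, percent of members called higher (red) or lower (blue) in lambs by distance to the nearest H3K4me3 region, with the number tested. Right, median log2 level of each library relative to the mean of the 4 libraries in the same distance classes, where fetus 2 rises to 0.330 and lamb 1 falls to -0.242 beyond 100 kb.

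Losses were also gathered in some stretches of the genome. Among 1588 windows of 1 Mb with at least 8 members tested, most members were lower in 17 windows and most were higher in 1. No count of such windows for other H3K27ac regions is given beside these, so the gathering is not shown to be particular to members. At chr3:51000001-52000000, 11 of 13 members were lower, and the members' summed level was 68.2 and 83.7 RPM in fetuses and 31.6 and 37.4 in lambs. At chr8:46000001-47000000, 17 of 21 were lower, with sums of 205 and 261 against 105 and 121. The counts were 5 and 10 without lamb 1, and 6 and 12 without lamb 2. The window with the highest share of gains was chr20:27000001-28000000, where 5 of 9 members were higher, with sums of 86.6 and 88.5 in fetuses and 117 in both lambs, and only 1 of 9 was higher when either lamb was left out. Of the H3K27ac regions over H3K4me3 in these windows, 1 of 1 was called on chromosome 3, 5 of 9 on chromosome 8 and 8 of 44 on chromosome 20. By chromosome, the share lower ran from 4.58% on chromosome 13 to 12.6% on chromosome 6, and the share higher from 2.4% on chromosome 17 to 6.4% on chromosome 25.

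Changes at members were set beside those at the nearest H3K27ac region that overlaps H3K4me3, measured in the same libraries. Of members that fell, 44.1% had a nearest such region that fell too, against 17.4% over all members. Of members that rose, 10.9% had one that rose, against 2.77%. Within 1 kb, these shares were 76.4% for losses, against 20.9% over all members there, and 14.0% for gains, against 1.93%. Of the 1431 gains, 156 had a nearest region that rose and 79 one that fell, and the rest had one with no call. Without lamb 1 the 44.1% became 32.0% (5.79% over all members), and without lamb 2 it became 37.9% (7.76%). The 10.9% for gains became 28.7% without fetus 1 (12.9% over all members) and 6% without lamb 1 (0.459%).

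H3K4me3 itself showed few changes. The members have 17902 different nearest H3K4me3 regions, of which 7 were higher and 13 lower in lambs (0.0391% and 0.0726%), beside 0.0529% higher and 0.0619% lower over all H3K4me3 regions tested. These counts depend on which libraries enter. Without fetus 1 there were 1962 higher and 2800 lower, without fetus 2 there were 2155 and 669, and without lamb 1 there were 69 and 1349. No such region was called in either direction without lamb 2 in edgeR's test, where 975 higher and 802 lower had an unadjusted p under 0.05, and no other tool was run on them. Without lamb 3 there were 9 and 6.

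H3K27me3 regions overlapped 877 members (2.70%). Of the 892 such H3K27me3 regions tested, 61 were higher and 68 lower in lambs (6.84% and 7.62%). Over all H3K27me3 regions tested the shares were 7.58% and 7.20%, and over those on chromosomes 1 to 26 they were 9.69% and 1.98%. Members with H3K27me3 rose in H3K27ac in 8.89% of cases and fell in 6.27%, against 4.28% and 7.34% of members without it. H3K27me3 calls were unstable. Without fetus 1, 0 regions were higher and 2 lower in edgeR's test, where 53 and 59 had an unadjusted p under 0.05, and without fetus 2 there was 1 of each. Without lamb 1 there were 33 higher and 86 lower, without lamb 2 there were 148 and 151, and on all libraries DESeq2 gave 8 and 40 and scaling by column totals gave 119 and 43.

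The large gains were where H3K27me3 overlap was most frequent. Of the 61 members that rose by more than 2-fold, 15 (24.6%) overlapped an H3K27me3 region, against 5.13% of gains of 1.5-fold to 2-fold, 2.84% of smaller gains and 1.90% of losses over 2-fold. Of the 8 named gains, 6 did so, and of the 8 named losses, none. The share among gains over 2-fold was 8.92% without fetus 1, when 381 gains passed that size, and lay between 18.6% and 22.7% without each of the other libraries. The comparison was made after the values were seen and was not tested.

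In 30 pairs of a member and an overlapping H3K27me3 region, both marks were called, beside 673 pairs in which neither was. H3K27ac alone rose in 62 pairs and fell in 48, and H3K27me3 alone rose in 40 and fell in 67. No count over other H3K27ac regions is given beside these. Whether pairs called in both marks were more frequent than the calls of each mark alone would give was not tested. In 18 pairs the marks moved in opposite directions, in 7 with a gain and in 11 with a loss of H3K27ac. The largest H3K27me3 change among them was at chr24:38787201-38787750, where H3K27ac was 3.16 and 1.90 RPM in fetuses and 5.74 and 5.42 in lambs (2.20-fold higher). The H3K27me3 region around it, chr24:38786451-38788100, had 14.2 and 9.82 in fetuses and 1.21 and 1.58 in lambs (log2 change -3.10 ± 0.40, adjusted p = 7.84e-11). The H3K27ac call there was lost without lamb 1 (adjusted p = 0.143) or lamb 2 (0.06). The reverse was seen at chr16:27311651-27313000. There H3K27ac was 6.44 and 10.1 in fetuses and 2.36 and 2.28 in lambs, while the overlapping H3K27me3 region had 13.2 and 6.69 against 24.4 and 16.8, and it counts in 2 of the 18 pairs because it overlaps 2 members. At chr8:61978901-61983600, a wide member of 4700 bp, H3K27ac was 32.3 and 35 in fetuses and 15.2 and 16 in lambs (2.16-fold lower), and H3K27me3 was low throughout, at 1.39 and 0.432 against 3.75 and 2.23 (adjusted p = 0.0367).

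In the other 12 pairs both marks rose, and in none did both fall. In 4 of the 12 the member was one of the named gains. At chr21:49099151-49099700, H3K27ac was 3.30 and 2.06 in fetuses and 9.24 and 5.67 in lambs, and H3K27me3 was 8.53 and 5.72 against 33.9 and 14.3, so both marks ranked the 4 animals in the same order. At chr14:49469051-49470100, H3K27ac was 3.39 and 7.16 in fetuses and 16.6 and 8.28 in lambs, and H3K27me3 was 10.6 and 32.0 against 47.7 and 28.8. There fetus 1 was lowest and lamb 1 highest in both marks. At chr4:32269401-32269950, the densest member, H3K27me3 was 5.55 and 4.53 in fetuses and 11.0 and 9.06 in lambs.

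The share of gains rose with chain size. The share of losses was nearly level among the members and was smaller in longer chains, outside the rule. The share higher was 3.92% in chains of 1, 4.91% in chains of 4, 5.27% in chains of 5, just outside the rule, and 7.92% in chains of 10 or more. The share lower lay between 7.24% and 7.54% for chains of 1 to 4, and was 6.32% in chains of 5 and 3.51% in chains of 10 or more. Distal regions whose gap to the next was within 500 bp under the chaining limit had 6.92% higher and 5.14% lower, and those within 500 bp over it had 4.07% and 4.52%.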

How the data were processed

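Perirenal fat chromatin was digested with micrococcal nuclease to fragments of about 150 bp and precipitated with 10 µg of antibody, per the labels' protocols. Reads of 50 bp were mapped to Oar_v3.1 with CLC Genomics Workbench, per the series design. Without roles, bedtools 2.19.0, MACS and edgeR appear in the submitters' processing notes. The authors deposited whole-number read counts per peak region for each mark, and a scaled signal per promoter, whose scaling factor no label states. The promoter signal served only for marker genes, scaled to a column total of 1000000. Deposited starts count from 0, so 1 was added.

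Members, lists, tests and the rule for naming regions were chosen with earlier results of these data known. Counts of each whole table were tested with edgeR 4.0.16 in R 4.3.3 (TMM, filterByExpr, quasi-likelihood test, lamb minus fetus, Benjamini-Hochberg adjustment, threshold 0.05). The SE of a log2 change is its size over the square root of the test's F. Levels (RPM) are counts scaled to 1000000 region reads with TMM factors. The test was checked on simulated counts with the same dispersion at every region and no effect of animal. That check does not cover how the calls depend on single libraries. Named regions are the 8 largest gains and losses among called members with at least 50 reads on average and no overlap between stages, the 4 densest, most read and widest, 3 chains each way with every member called, 4 members called in opposite directions in H3K27ac and H3K27me3, and 2 near the median level. Alternatives were other scalings, DESeq2 1.42.0, other filters, a replicate block, each library left out, and other distal and chain rules. Labels name separate animals as replicates, and their number limits every p-value. No Oar_v3.1 genome or annotation was used, so regions were not linked to genes and no sequence is shown.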

Additional observations from a re-analysis of the deposited data

How the results depend on the processing

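Fetus 1 and lamb 1 share a replicate number but are separate animals, so the numbers were not used to pair the samples. The deviations of same-numbered libraries had a correlation of 0.291 for H3K27ac, 0.0701 for H3K27me3 and -0.0794 for H3K4me3. In H3K27ac, same-numbered libraries thus deviated partly alike, and the source of this was not tested. With the replicate number as a block, 4091 members were higher and 4418 lower, 42.0% of members beyond 100 kb were lower, and 20 nearest H3K4me3 regions were higher. Leaving out 1 library at a time gave 100 to 4960 members higher and 676 to 6093 lower, a median change from -1.4e-05 to 0.0676, and 9.36% to 52.6% lower beyond 100 kb. It gave 0 to 148 overlapping H3K27me3 regions higher and 1 to 151 lower, and 0 to 2155 nearest H3K4me3 regions higher and 0 to 2800 lower. A stage left with 1 library is assumed to vary like the other.

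Scaling by column totals gave 2325 members higher and a median of 0.101, and 119 H3K27me3 regions higher and 43 lower. TMM factors from the H3K4me3-overlapping regions gave 2484 and a median of 0.12. DESeq2 gave 8 H3K27me3 regions higher and 40 lower. Changing the chain gap to 5000 or 25000 bp gave 2314 and 761 members higher, and chains of 1 region alone gave 461 higher and 850 lower. These rules change the number of members and also the share called, which was 5.08% higher and 6.35% lower at 5000 bp, 3.71% and 8.52% at 25000 bp, and 3.92% and 7.24% for chains of 1. The share of reads was 1.942 points higher in lambs at 5000 bp, 0.209 at 25000 bp and 0.25 for chains of 1. The alternatives for H3K4me3, the distance classes, width, chains and the nearest and overlapping regions were chosen after seeing the data. Of the 36 named regions that were called, 36 kept call and direction under both other scalings, both other filters, the block and without fetus 1, 35 without fetus 2, 31 with DESeq2, 28 without lamb 2 and 22 without lamb 1.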
